A study of Mus musculus with 6 samples.

Results

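The genes described here carry glucose into the cell, break it down to pyruvate and lactate, and bear on whether pyruvate is oxidized in the mitochondria. They were chosen by symbol as 34 genes of this pathway, out of 55416 genes in the count table, and all 34 were among the 16296 genes with enough counts to be tested. A second gene model also named *Aldoa*, which held at most 16 counts in a library, was kept apart. The list was drawn up with results of these libraries known, the rise of *Eno1* among them, so the values of the genotype comparison are given as a description of these libraries.

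RNA was sequenced from endothelial cells (ECs) of E15.5 mouse heart ventricles. All embryos carried *Pdgfb*(CreERT2/+), a tamoxifen-inducible Cre driven from an EC gene, and R26(mTmG/+), a reporter that switches from membrane Tomato to membrane GFP (mGFP) where Cre has acted. ControlΔEC embryos were *Wt1*(+/+) and Wt1KOΔEC embryos were *Wt1*(loxP/loxP), so that both genotypes had Cre, reporter and drug and differed in the floxed alleles of *Wt1*, which encodes a zinc finger transcription factor. Pregnant dams were given tamoxifen (75 mg/kg by gavage) over the embryonic stages E11.5-13.5, and the mGFP+ cells sorted from digested ventricles gave 3 libraries per genotype, which the labels call biological replicates without saying how many embryos each holds. The comparison asks what loss of *Wt1* changes in the coronary endothelium of the embryo.

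Glucose enters the EC through facilitative transporters of the GLUT family and is phosphorylated by hexokinase, which traps it. Phosphofructokinase then commits the sugar to glycolysis, under the control of fructose-2,6-bisphosphate, whose level is set by the bifunctional PFKFB enzymes. ECs are known for drawing much of their ATP from glycolysis even where oxygen is plentiful, and *Pfkfb3* is the isoform most often tied to vessel sprouting. Pyruvate dehydrogenase kinases (PDKs) hold back pyruvate dehydrogenase, the mitochondrial enzyme that oxidizes pyruvate. Lactate dehydrogenase and the monocarboxylate transporters dispose of pyruvate as lactate. Many of these genes are textbook targets of hypoxia-inducible factors, which bind a short core, ACGTG or GCGTG, in promoters and enhancers.

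Promoter windows of 250 bases before the annotated start were taken from RefSeq on GRCm38.p6, an older build than that of the gene positions given further on, and 32 of the 34 genes had at least 1 window. The cores ACGTG and GCGTG were searched on both strands, where CACGTG counts on each strand. A core of either kind was in 38 of the 51 windows of these genes (74.5%), against 38.6% of all 32851 windows. Some windows of the same gene overlap, so the same core can be counted repeatedly. ACGTG alone was in 37.3% of the members' windows and 16.6% of all, and GCGTG in 52.9% and 28.2%. The letters GCGGGGGCG and GCGTGGGAG, of the kind bound by EGR factors and WT1, were in 0 and 1 of the 51 windows, against 2.57% and 0.405% of all windows. A match describes the letters of a window and does not show a binding site. The windows of 4 genes are printed in lower case with each core in capitals, the one furthest upstream for genes with several: *Eno1* because it was the gene called by the test described further on, *Ldha* because it had most copies of ACGTG, *Slc16a3* because its cores lie near the start, and *Pkm*, an abundant enzyme, whose window furthest upstream has none. The windows not printed held 1 ACGTG for *Pkm*, 1 GCGTG for *Ldha* and 2 GCGTG in each of the others for *Eno1*. The printed windows lie at chr4:150236458-150236707 (plus strand), chr7:46845554-46845803 (plus strand), chr11:120948817-120949066 (plus strand) and chr9:59656326-59656575 (plus strand).
Eno1: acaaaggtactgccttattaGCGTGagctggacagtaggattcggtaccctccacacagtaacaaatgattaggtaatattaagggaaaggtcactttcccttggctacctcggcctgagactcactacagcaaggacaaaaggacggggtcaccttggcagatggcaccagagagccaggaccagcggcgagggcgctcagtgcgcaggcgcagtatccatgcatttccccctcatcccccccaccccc
Ldha: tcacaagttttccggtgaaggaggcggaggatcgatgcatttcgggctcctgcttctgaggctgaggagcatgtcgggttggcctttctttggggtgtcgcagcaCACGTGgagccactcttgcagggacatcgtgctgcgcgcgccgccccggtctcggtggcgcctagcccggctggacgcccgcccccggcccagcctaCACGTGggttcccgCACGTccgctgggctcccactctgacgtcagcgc
Slc16a3: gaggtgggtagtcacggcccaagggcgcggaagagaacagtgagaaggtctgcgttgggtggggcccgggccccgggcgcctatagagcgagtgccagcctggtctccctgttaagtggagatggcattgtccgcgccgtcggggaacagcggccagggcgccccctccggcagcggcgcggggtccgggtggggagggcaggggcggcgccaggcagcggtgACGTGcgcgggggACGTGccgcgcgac
Pkm: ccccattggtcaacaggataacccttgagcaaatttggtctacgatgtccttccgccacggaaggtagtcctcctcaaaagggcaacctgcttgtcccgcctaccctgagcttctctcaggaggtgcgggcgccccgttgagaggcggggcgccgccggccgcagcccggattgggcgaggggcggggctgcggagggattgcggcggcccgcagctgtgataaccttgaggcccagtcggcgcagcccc

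The libraries held 26037324 to 44779020 counts, at which 3 counts, taken as the floor of detection, make 0.0608 to 0.119 CPM (counts relative to the library total, adjusted by its TMM factor). This floor reflects counting error alone, because reads copied by PCR do not each stand for a molecule. *Wt1* itself was at 145, 109.5 and 149 CPM in ControlΔEC and at 14.0, 18.4 and 21.3 CPM in Wt1KOΔEC. The 6 endothelial markers *Pecam1*, *Cdh5*, *Kdr*, *Tek*, *Cldn5* and *Erg* summed to 3671 to 4741 CPM in ControlΔEC and 3697 to 4253 CPM in Wt1KOΔEC, and each was detected in every library. The 18S ribosomal transcript *Rn18s* took 13.2 to 15.3% of the counts in ControlΔEC and 21.1 to 26.5% in Wt1KOΔEC, and mitochondrially encoded genes 5.21 to 6.61% and 1.68 to 4.57%. The library identifiers begin with other letters in each genotype, so a difference in handling that follows the genotypes cannot be told apart from them.

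In ControlΔEC libraries the most abundant transcripts of the pathway were mostly those of enzymes from aldolase to lactate dehydrogenase. Per kb of the canonical transcript, *Gapdh* was highest at 972 ± 99.8 CPM per kb (SD, n = 3), followed by *Ldha* at 798 ± 76.3, *Aldoa* at 570 ± 68.98 and *Pkm* at 545 ± 28.7 CPM per kb. *Aldoa* and *Pkm* differed by less than their spread, and so did *Tpi1* (280 ± 18.9 CPM per kb) and *Eno1b* (270 ± 28.3 CPM per kb), the next in order. *Pgk1* and *Gpi1* followed at 225 ± 25.3 and 208 ± 22.8 CPM per kb, again within their spread, and *Eno1* was ninth at 172 ± 11.1 CPM per kb. Genes of glucose uptake, hexose phosphorylation and the phosphofructokinase step were lower. The phosphofructokinase *Pfkl* was at 62.2 ± 5.69, the glucose transporter *Slc2a1* (GLUT1) at 31.4 ± 2.87, the hexokinase *Hk1* at 23.3 ± 6.73 and *Pfkfb3* at 6.18 ± 0.917 CPM per kb. At the foot of the order stood *Hk2* at 0.545 ± 0.461 and *Aldoc* at 0.247 ± 0.350 CPM per kb.

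**Figure D1:**
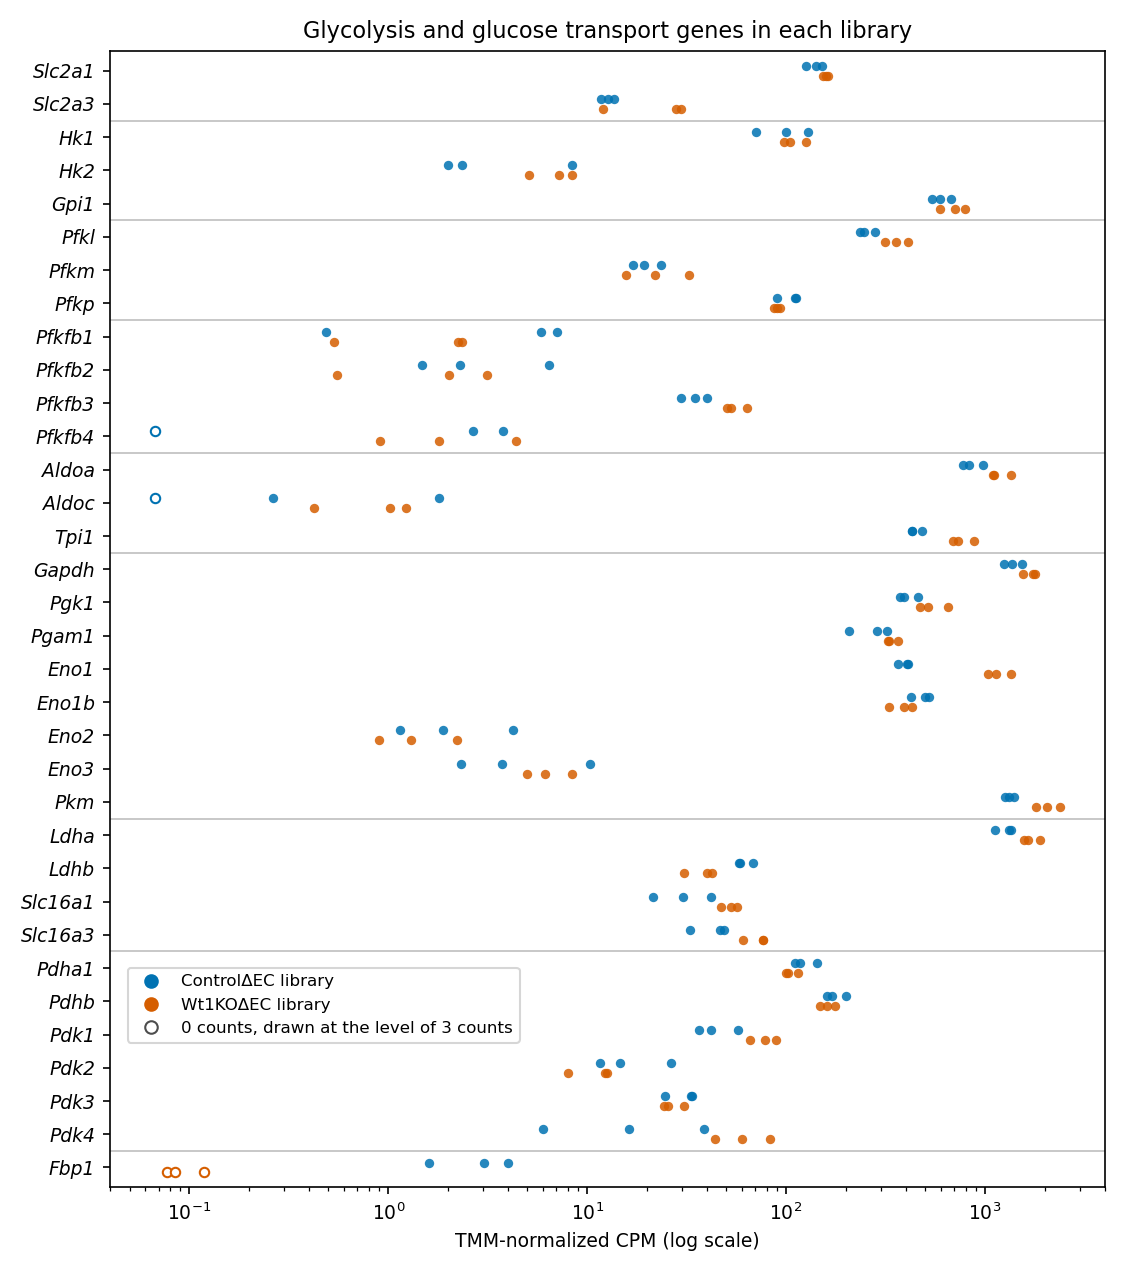
TMM-normalized CPM (log scale) of the 34 genes in each of the 6 libraries, 1 point per library, grouped by step with grey lines; open circles are libraries with 0 counts, drawn at the level of 3 counts. The abundant enzymes from *Aldoa* to *Ldha* lie mostly to the right in Wt1KOΔEC, *Eno1* furthest from its controls, while *Ldhb* and *Fbp1* lie to the left.

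Summed over the 34 genes, the pathway took 9334, 8547 and 8217 CPM in ControlΔEC libraries 1, 2 and 3, and 13309.8, 11773 and 11013 CPM in the Wt1KOΔEC libraries. Every Wt1KOΔEC library was above every ControlΔEC library, and the ratio of the means was 1.38. The 19 enzymes from hexokinase to lactate dehydrogenase gave 8011 ± 547 CPM in ControlΔEC and 11219.6 ± 1183 CPM in Wt1KOΔEC. Leaving out *Eno1* and *Eno1b* the ratio of the means was 1.35, so the 17 other enzymes carried most of the difference. As a share of all counts, with no scaling between libraries, the pathway took 0.871 to 0.943% in ControlΔEC and 1.07 to 1.22% in Wt1KOΔEC. In bulk RNA a change in the number of cells of a type and a change in RNA per cell cannot be told apart.

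The genotypes were set against each other by the quasi-likelihood test of edgeR, with Benjamini-Hochberg adjustment over all genes tested, and a gene was called at an adjusted p under 0.05 with an absolute log2 fold change above 0.58. By this rule 1 of the 34 genes, *Eno1*, was called higher and 0 lower, where 0.0491% of all genes tested were called higher and 0.0245% lower. At an unadjusted p under 0.05, with no fold change limit, 13 of the genes were higher and 2 lower, against 5.96% and 7.12% of all genes, and with the fold change limit 9 were higher and 2 lower, against 4.17% and 5.96%. DESeq2, whose calls were far more numerous, called 7 of the 34 genes higher (*Pfkfb3*, *Tpi1*, *Eno1*, *Pkm*, *Slc16a3*, *Pdk1* and *Pdk4*) and 2 lower (*Ldhb* and *Fbp1*), against 1.43% and 1.72% of all genes. The genotypes did not overlap in 15 genes that were higher in Wt1KOΔEC (10.3% of all genes tested) and in 2 that were lower (8.97%), and they overlapped in the other 17 (80.7%). The log2 fold change was above 0 in 23 of the 34 genes and in 48% of all genes tested. Its median was 0.27 over the 34 genes and -0.03 over all genes tested. Among genes with a mean of at least 100 CPM it was 0.33 over 15 members and 0.06 over 1630 genes. These counts describe a list drawn up with the results in view, and nothing is read from them about the pathway against other genes.

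**Figure D2:**
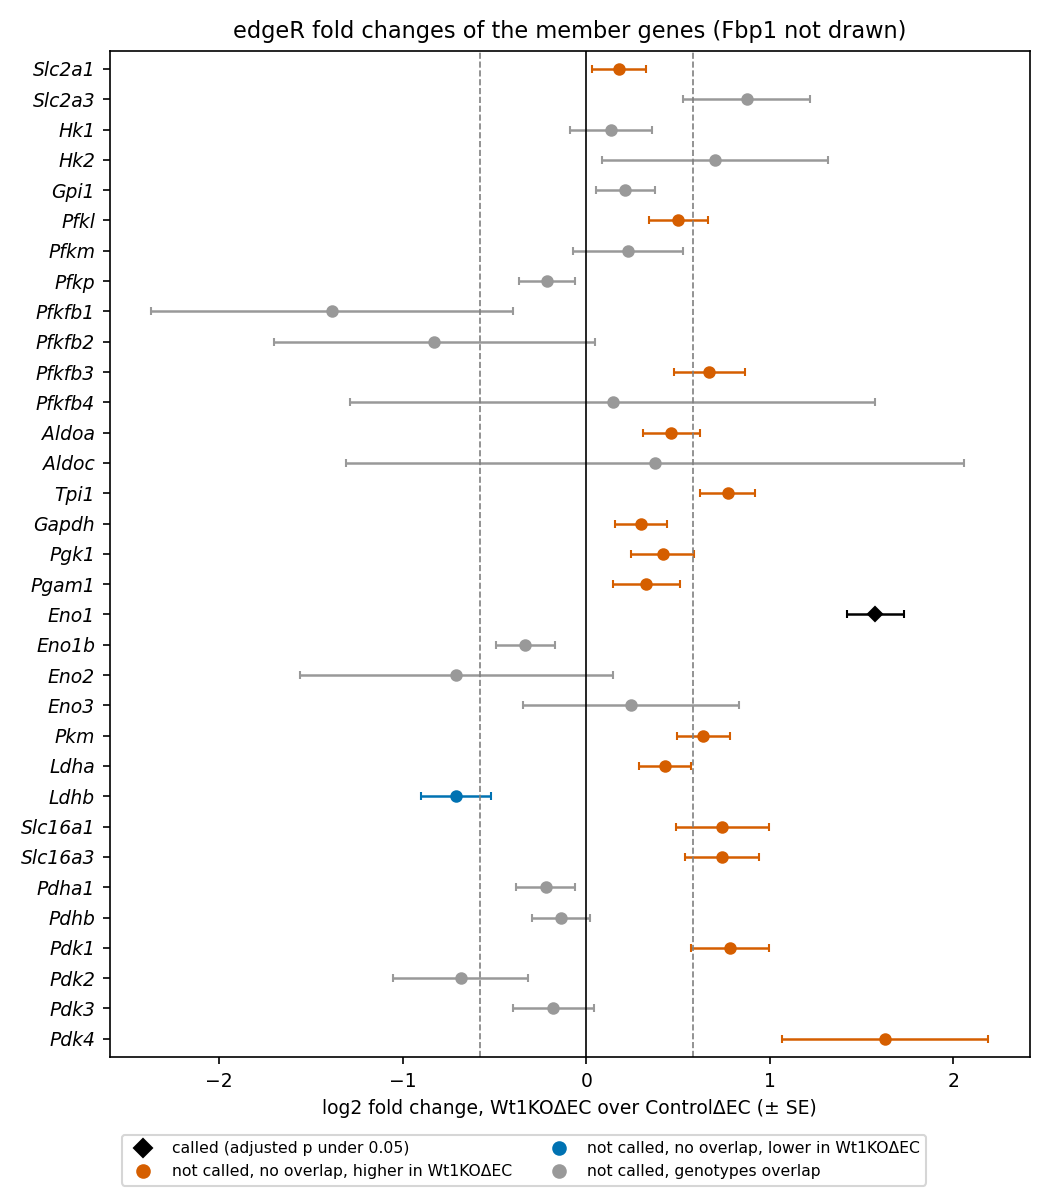
Fitted log2 fold change of Wt1KOΔEC over ControlΔEC (x axis) with its standard error for 33 of the genes, in pathway order; dashed lines mark the limit of 0.58 either way. *Eno1*, the black diamond, is at 1.58; 14 genes in orange and *Ldhb* in blue had no overlap between the genotypes without being called, and *Fbp1* is not drawn because its Wt1KOΔEC libraries held 0 counts.

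No glucose transporter was called. *Slc2a1*, the main glucose transporter of ECs, was at 142, 126 and 151 CPM in ControlΔEC and 153, 162 and 159 CPM in Wt1KOΔEC. The genotypes did not overlap, but by a margin much smaller than the spread within ControlΔEC (log2 fold change 0.18, SE 0.15, adjusted p = 0.692). *Slc2a3* (GLUT3), which has a high affinity for glucose, was at 12.7, 11.7 and 13.6 CPM in ControlΔEC and 12.0, 29.8 and 28.0 CPM in Wt1KOΔEC. Wt1KOΔEC library 1 sat among the controls and the others were above them (log2 fold change 0.87, SE 0.35, adjusted p = 0.332).

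The hexokinases and glucose-6-phosphate isomerase overlapped between genotypes. *Hk1*, the housekeeping hexokinase, was at 100.3, 71.0 and 129 CPM in ControlΔEC and 105, 126 and 98.2 CPM in Wt1KOΔEC, and its log2 fold change of 0.13 (SE 0.22) turned to -0.06 without ControlΔEC library 2. *Hk2*, the inducible hexokinase, lay between 2.01 and 8.39 CPM in all 6 libraries. *Gpi1*, which turns glucose-6-phosphate into fructose-6-phosphate, was at 673, 542 and 593 CPM in ControlΔEC and 797, 706 and 594 CPM in Wt1KOΔEC (log2 fold change 0.21, SE 0.16).

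At the phosphofructokinase step the liver-type subunit took a larger share in Wt1KOΔEC and the platelet type a smaller share. *Pfkl* was at 247, 281 and 237 CPM in ControlΔEC and 412, 359 and 313 CPM in Wt1KOΔEC, with no overlap (log2 fold change 0.50, SE 0.16, adjusted p = 0.254). *Pfkp* was at 90.5, 111 and 113 CPM in ControlΔEC and 90.2, 87.0 and 93.4 CPM in Wt1KOΔEC, where the lowest control lay inside the range of the other genotype. *Pfkl* made up 68.0 ± 2.68% of the 3 subunits per kb in ControlΔEC and 76.6 ± 1.46% in Wt1KOΔEC, and *Pfkp* 26.6 ± 2.55% and 18.4 ± 2.59%, in both cases without overlap. *Pfkm*, the muscle-type subunit, lay between 15.7 and 32.5 CPM with the genotypes overlapping. With the genes that share sequence summed in, the share of *Pfkl* was 49.5% and 57.8% and that of *Pfkp* 38.4% and 32.0%. These sums took in whole neighbouring genes. *Pitrm1*, at 110 CPM in ControlΔEC and 124 CPM in Wt1KOΔEC, has 9.9% of the 51-base stretches of *Pfkp* in common. *Senp1*, at 42.6 and 40.0 CPM, has 3.29% of those of *Pfkm*, so the sums also count reads of these neighbours alone. The subunit shares are ratios within a library and do not depend on the scaling between libraries.

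*Pfkfb3* (chromosome 2, 11476244 to 11558888, GRCm39), which makes the activator of phosphofructokinase, was at 40.1, 29.7 and 34.8 CPM in ControlΔEC and 52.8, 50.6 and 63.3 CPM in Wt1KOΔEC. The genotypes did not overlap, and its log2 fold change was 0.67 (SE 0.19), with an adjusted p of 0.221 from edgeR and 0.0285 from DESeq2. *Pfkfb1*, *Pfkfb2* and *Pfkfb4* were each under 10 CPM in every library and overlapped between genotypes. *Pfkfb3* made up 60.0 ± 2.83% of the PFKFB transcripts per kb in ControlΔEC and 81.4 ± 5.09% in Wt1KOΔEC. The level of this share depends on the length used. It was 77.4% and 90.1% with no division by length, and 76.5% and 89.6% with the union of all annotated exons. With the genes that share sequence summed in, the share of *Pfkfb3* per kb was 41.7% and 54.3%. No such gene was summed with *Pfkfb3* itself. The sums added the neighbouring gene *Yod1*, at 13.9 CPM in ControlΔEC and 18.6 CPM in Wt1KOΔEC, to *Pfkfb2*, with which it has 12.9% of the 51-base stretches in common.

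*Aldoa* and *Tpi1*, the aldolase that splits the sugar and the isomerase that interconverts the pieces, were higher in every Wt1KOΔEC library than in any control. *Aldoa* was at 977, 833 and 774 CPM in ControlΔEC and 1351, 1113 and 1096 CPM in Wt1KOΔEC (log2 fold change 0.46, SE 0.16, adjusted p = 0.268). *Tpi1* (chromosome 6, 124787549 to 124791273) was at 432, 485 and 432 CPM in ControlΔEC and 879.7, 733 and 689 CPM in Wt1KOΔEC. The gap between the genotypes was several times the range within ControlΔEC, and the log2 fold change was 0.77 (SE 0.15), with an adjusted p of 0.114 from edgeR and 5.67e-05 from DESeq2. It was called by edgeR where no filter on low counts was applied (adjusted p = 0.0325). *Aldoc*, the brain-type aldolase, was at 0, 0.263 and 1.80 CPM in ControlΔEC and 1.02, 0.421 and 1.23 CPM in Wt1KOΔEC, and the genotypes overlapped.

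In the later steps of glycolysis, where ATP is made, *Gapdh*, *Pgk1* and *Pgam1* were higher in every Wt1KOΔEC library, with log2 fold changes under that of *Aldoa*. *Gapdh* was at 1530.1, 1248 and 1364 CPM in ControlΔEC and 1748, 1792 and 1552 CPM in Wt1KOΔEC. The lowest Wt1KOΔEC library exceeded the highest control only slightly (log2 fold change 0.30, SE 0.14, adjusted p = 0.413). *Pgk1*, which makes the first ATP of the pathway, was at 463, 375 and 394 CPM in ControlΔEC and 654, 519 and 473 CPM in Wt1KOΔEC (log2 fold change 0.42, SE 0.17). *Pgam1*, the phosphoglycerate mutase, was at 321, 286 and 209 CPM in ControlΔEC and 330.0, 326 and 367 CPM in Wt1KOΔEC (log2 fold change 0.33, SE 0.18). In both genes the genotypes were separated by less than the spread within a genotype. *Gapdh* shares 51-base stretches, the read length, with transcripts of 88 other gene models in the table, most of them pseudogenes, and the log2 fold change of all of them summed with *Gapdh* was 0.31.

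*Pkm* (chromosome 9, 59563364 to 59586663), which encodes pyruvate kinase and makes the last ATP of the pathway, was at 1408, 1329.7 and 1268 CPM in ControlΔEC and 2375, 2049.6 and 1810.2 CPM in Wt1KOΔEC. All Wt1KOΔEC libraries were well above the controls, and the log2 fold change was 0.64 (SE 0.14), with an adjusted p of 0.164 from edgeR and 0.00139 from DESeq2. Counts per gene do not separate the PKM1 and PKM2 splice forms.

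Enolase, which makes phosphoenolpyruvate, was the step that held the gene called. *Eno1* (chromosome 4, 150321073 to 150337027), the enolase of most tissues, was at 405, 412 and 365 CPM in ControlΔEC and 1348, 1144 and 1033 CPM in Wt1KOΔEC. The lowest Wt1KOΔEC library was far above the highest control, and the means differed 2.98-fold (log2 fold change 1.58, SE 0.15, adjusted p = 0.0152 from edgeR). The log2 fold change was 1.47 to 1.66 when single libraries were left out, and the adjusted p rose to 0.0698, 0.0804, 0.0824 and 0.0606 without ControlΔEC library 1 and Wt1KOΔEC libraries 1, 2 and 3, so that the call was lost in these. Without *Rn18s* and the mitochondrially encoded genes it was 1.58 (adjusted p = 0.0106), and with offsets for gene length and GC content 1.46 (adjusted p = 0.0274).

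*Eno1b* (chromosome 18, 48178402 to 48181479) is a retrogene copy of *Eno1*, so reads of the gene and its copy can be mistaken for each other. The canonical transcripts were 99.5% identical over 1652 aligned bases, with 9 mismatches, and 76.1% of the 51-base words of *Eno1b* also occurred in transcripts of *Eno1*. *Eno1b* was at 522, 501 and 425 CPM in ControlΔEC and 428, 392 and 331 CPM in Wt1KOΔEC. The genotypes overlapped, with Wt1KOΔEC lower on average (log2 fold change -0.33, SE 0.16, adjusted p = 0.425). The sum of the 2 genes, which does not depend on how shared reads were divided, was 927, 913 and 790.5 CPM in ControlΔEC and 1776, 1535 and 1364 CPM in Wt1KOΔEC. The sum was higher in every Wt1KOΔEC library by 1.78-fold in the means, and it was not called (log2 fold change 0.83, SE 0.15, adjusted p = 0.110), while DESeq2 gave it an adjusted p of 2.11e-05.

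Within the pair, *Eno1* made up 39.0 ± 1.18% per kb in ControlΔEC and 70.5 ± 0.873% in Wt1KOΔEC, with very little spread inside either genotype. The level of this share depends on the length used: with no division by length *Eno1* took 45.01% of the pair in ControlΔEC and 75.4% in Wt1KOΔEC, and with the union of all annotated exons 11.8% and 33.3%. A processed pseudogene, *Gm4735*, which shares 1039 words with *Eno1*, was at 7.17, 15.4 and 76.0 CPM in ControlΔEC and 86.5, 56.03 and 66.8 CPM in Wt1KOΔEC. Summing *Eno1*, *Eno1b*, *Gm4735* and *Gm5855* gave a log2 fold change of 0.83 (SE 0.15, adjusted p = 0.103). The neuronal and muscle enolases, *Eno2* and *Eno3*, stayed at or under 10.4 CPM in every library and overlapped between genotypes.

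**Figure D3:**
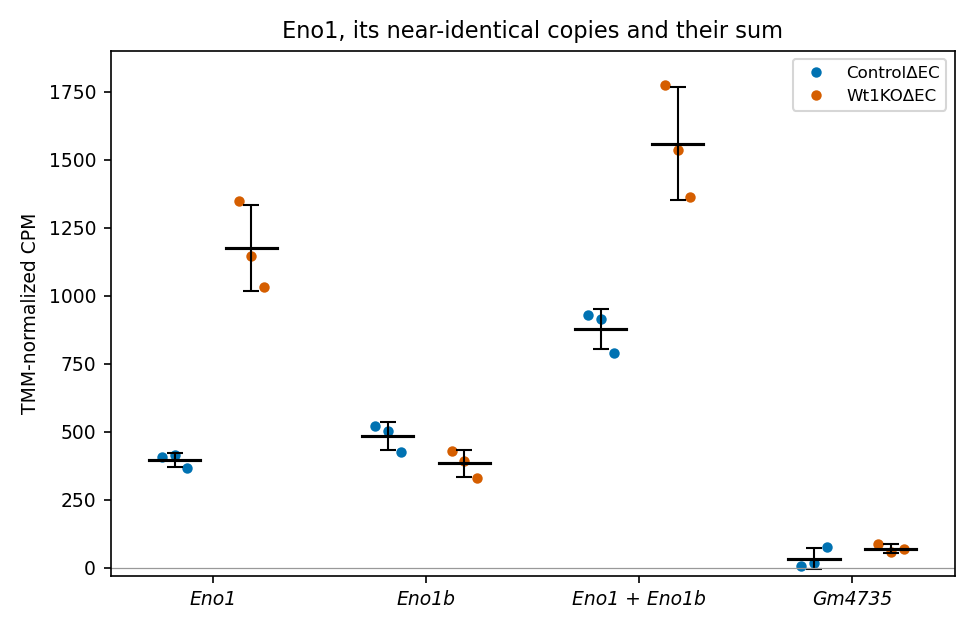
TMM-normalized CPM of *Eno1*, *Eno1b*, their sum and the pseudogene *Gm4735* in each library (libraries 1, 2 and 3 from left to right), with the mean (thick bar) and SD (thin bar) of 3 libraries per genotype. *Eno1* and the sum separate the genotypes, with means of 394 and 1175 CPM and of 877 and 1558 CPM, whereas *Eno1b* and *Gm4735* overlap.

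**Figure D4:**
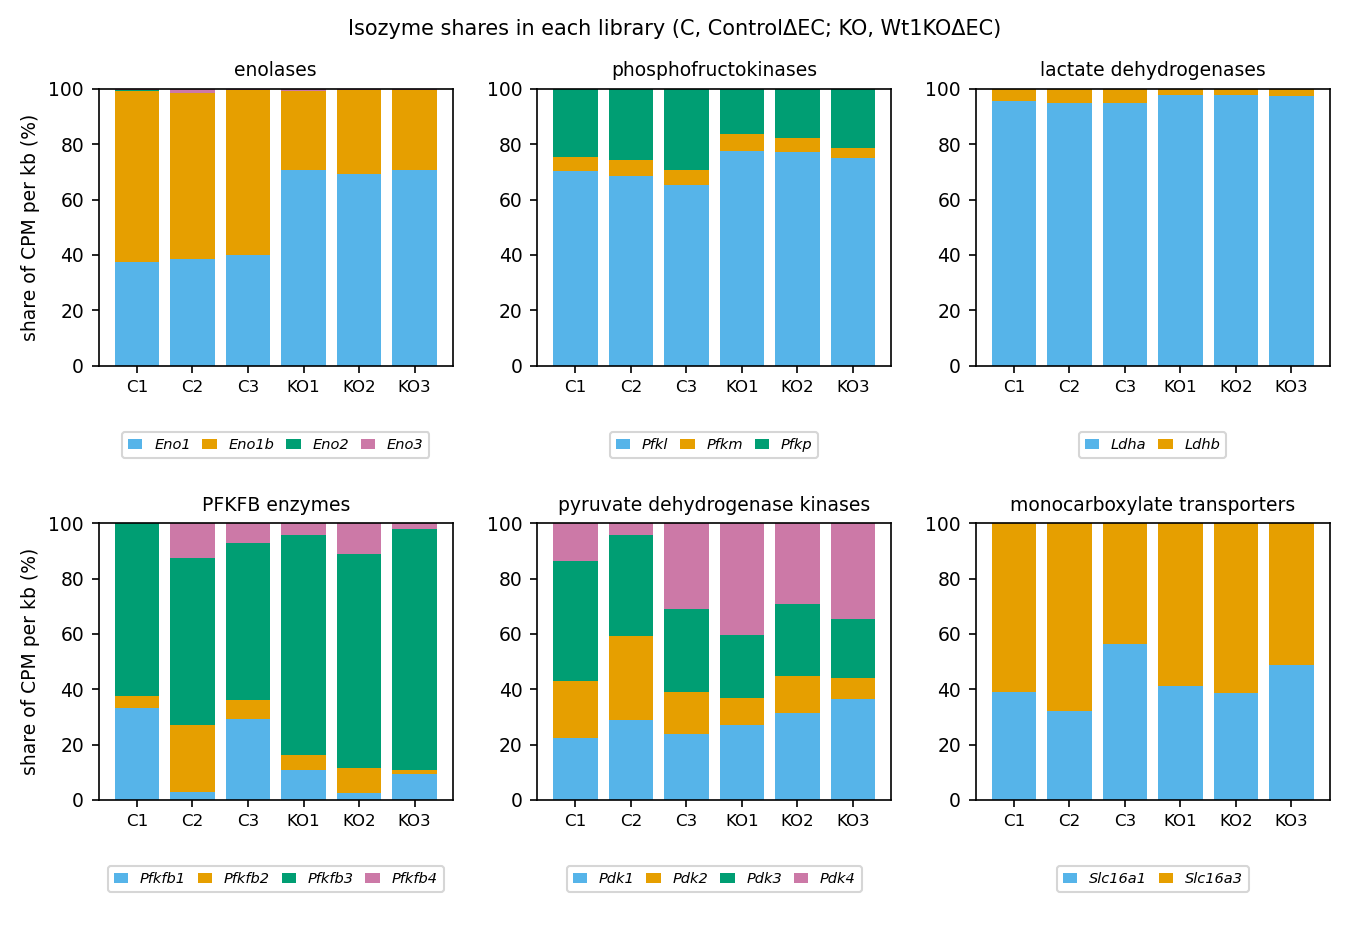
Share of each isozyme in the summed CPM per kb of its step (y axis, percent), in ControlΔEC libraries C1 to C3 and Wt1KOΔEC libraries KO1 to KO3. On average *Eno1* makes up 38.7% and 70.1% of the enolases in ControlΔEC and Wt1KOΔEC, *Pfkl* 68.0% and 76.6% of the phosphofructokinases and *Ldhb* 4.83% and 2.24% of the lactate dehydrogenases, and the shares of the transporters overlap.

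The lactate dehydrogenase genes differed between genotypes in opposite directions. *Ldha*, whose subunit favours the making of lactate, was at 1351, 1322 and 1128 CPM in ControlΔEC and 1890.0, 1576 and 1648 CPM in Wt1KOΔEC (log2 fold change 0.43, SE 0.14, adjusted p = 0.267). *Ldhb* (chromosome 6, 142435672 to 142454586), whose subunit favours the return of lactate to pyruvate, was at 57.8, 68.5 and 58.8 CPM in ControlΔEC and 42.3, 30.8 and 40.0 CPM in Wt1KOΔEC. Neither gene overlapped between genotypes, and with *Fbp1*, described further on, *Ldhb* was among the 2 genes that were lower without overlap. Its log2 fold change was -0.71 (SE 0.19), with an adjusted p of 0.209 from edgeR and 0.0149 from DESeq2. *Ldhb* made up 4.83 ± 0.5002% of lactate dehydrogenase transcripts per kb in ControlΔEC and 2.24 ± 0.237% in Wt1KOΔEC.

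Lactate leaves or enters the cell through monocarboxylate transporters. *Slc16a1* (MCT1) was at 30.5, 21.5 and 41.9 CPM in ControlΔEC and 52.7, 47.1 and 57.0 CPM in Wt1KOΔEC (log2 fold change 0.74, SE 0.25, adjusted p = 0.274). *Slc16a3* (MCT4; chromosome 11, 120838846 to 120851694), the exporter of highly glycolytic cells, was at 48.7, 46.4 and 33.0 CPM in ControlΔEC and 76.9, 76.4 and 60.9 CPM in Wt1KOΔEC (log2 fold change 0.74, SE 0.20, adjusted p = 0.216 from edgeR and 0.0267 from DESeq2). Both were higher in every Wt1KOΔEC library. *Slc16a3* overlaps annotated transcripts of the kinase gene *Csnk1d*, which was at 299, 263 and 199 CPM in ControlΔEC and 182, 151 and 164 CPM in Wt1KOΔEC (log2 fold change -0.61). The sum of *Slc16a3* with *Csnk1d* and *Ccdc57* had the opposite sign (log2 fold change -0.32, SE 0.18). This sum takes in the whole of *Csnk1d*, the more abundant gene, so it mostly follows that neighbour.

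At the pyruvate dehydrogenase step the enzyme itself did not separate the genotypes and some of its kinases did. The pyruvate dehydrogenase subunit genes *Pdha1* and *Pdhb* were at 110.5 to 143 and 160.2 to 201 CPM in ControlΔEC and at 100.0 to 116 and 149 to 176 CPM in Wt1KOΔEC, with overlap in both. *Pdk1* (chromosome 2, 71703488 to 71734202), the kinase induced in hypoxia, was at 36.6, 57.1 and 41.8 CPM in ControlΔEC and 78.4, 65.8 and 89.4 CPM in Wt1KOΔEC, with no overlap (log2 fold change 0.79, SE 0.21, adjusted p = 0.209 from edgeR and 0.0266 from DESeq2). *Pdk4* (chromosome 6, 5483097 to 5496339), the kinase induced by fasting and fatty acids, was at 16.2, 5.998 and 38.7 CPM in ControlΔEC and 83.3, 43.8 and 60.4 CPM in Wt1KOΔEC.

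*Pdk4* had the largest fitted fold change of the genes measured in all libraries, and a wide spread with it: the log2 fold change was 1.63 (SE 0.56), with an adjusted p of 0.278 from edgeR and 0.0473 from DESeq2. The controls differed among themselves more than ControlΔEC library 3 differed from Wt1KOΔEC library 2, and the log2 fold change ranged from 1.19 without ControlΔEC library 2 to 2.50 without ControlΔEC library 3. *Pdk2* was at 14.7, 26.5 and 11.54 CPM in ControlΔEC and 12.5, 12.3 and 7.99 CPM in Wt1KOΔEC, and *Pdk3* at 33.2, 33.6 and 24.5 and at 30.8, 25.4 and 24.4 CPM. Both overlapped, while as shares of the 4 kinases per kb *Pdk3* went from 36.6 ± 6.69% to 23.4 ± 2.34% and *Pdk2* from 22.1 ± 7.88% to 10.2 ± 2.98% without overlap. With the union of all annotated exons as length these shares were 23.6% and 11.1% for *Pdk3* and 13.1% and 4.41% for *Pdk2*.

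*Fbp1* (chromosome 13, 63012567 to 63036263) runs the opposite way to phosphofructokinase, removing a phosphate from fructose-1,6-bisphosphate in gluconeogenesis. It held 179, 79 and 87 counts in ControlΔEC, which is 4.00, 1.60 and 3.02 CPM, and 0 counts in each Wt1KOΔEC library. Against the floor of 3 counts per library it was at least 30.8-fold lower in Wt1KOΔEC, with an adjusted p of 0.110 from edgeR and 9.42e-07 from DESeq2. Its transcripts share no 51-base stretch with another annotated gene. Its level in ControlΔEC was 1.81 ± 0.758 CPM per kb. The 6 macrophage markers summed to 218 to 674 CPM in ControlΔEC and 163 to 223 CPM in Wt1KOΔEC, and their part in the level of *Fbp1* was not tested.

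Genes around the pathway were read from lists of the same fit. In these 7 lists, with 69 genes tested, edgeR called 0 genes higher and 0 lower, 13 higher and 4 lower had an unadjusted p under 0.05 (5.96% and 7.12% of all genes tested), and DESeq2 called 1 higher and 2 lower (1.43% and 1.72% of all genes). The genotypes did not overlap in 17 that were higher and 7 that were lower, against 10.3% and 8.97% of all genes tested. In the pentose phosphate pathway, 5 of the 8 genes tested were higher without overlap and 1 lower, and 5 higher and 1 lower had an unadjusted p under 0.05. The lower gene, *Rpia*, named after its values were seen, averaged 2.30 CPM in ControlΔEC and 0.248 CPM in Wt1KOΔEC (log2 fold change -3.21, SE 1.41, adjusted p = 0.378). Among genes with a mean of 10 CPM or more the range ran from *G6pdx*, the entry enzyme, at 34.8 to 43.4 CPM in ControlΔEC and 27.2 to 38.1 CPM in Wt1KOΔEC (log2 fold change -0.25), to *Rpe*, an epimerase of its later part, at 7.15 to 15.8 and 20.5 to 29.2 CPM (log2 fold change 0.92). In the serine branch, which leaves glycolysis at 3-phosphoglycerate, 2 of 5 genes were higher without overlap. Its first enzyme, *Phgdh*, was at 11.4, 6.10 and 6.31 CPM in ControlΔEC and 16.8, 14.1 and 20.0 CPM in Wt1KOΔEC (log2 fold change 1.09, SE 0.34, adjusted p = 0.247), and at a mean of 10 CPM or more the lowest log2 fold change was that of *Psat1* at 0.21.

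Of 25 other transporters and isoforms of glycolysis, 13 were tested, and 4 were higher and 2 lower without overlap (10.3% and 8.97% of all genes tested). At a mean of 10 CPM or more the fold changes ran from *Slc2a8* at -0.84 to *Slc2a10* at 0.79 on the log2 scale. In glycogen metabolism 2 of 10 genes tested were higher without overlap, and the log2 fold changes ran from -0.66 for *Pygm*, the muscle phosphorylase, to 0.55 for *Gys1*, glycogen synthase. Of 8 genes for the entry of pyruvate, 1 was lower without overlap, and the extremes were *Pcx* at -0.53 and *Mpc2* at 0.24. Among 16 genes of the tricarboxylic acid cycle, 3 were higher and 1 lower without overlap (10.3% and 8.97% of all genes tested). The succinate dehydrogenase subunit *Sdhd* was highest, at 54.2 to 70.9 CPM in ControlΔEC and 90.3 to 112 CPM in Wt1KOΔEC (log2 fold change 0.74, adjusted p = 0.170 from edgeR and 0.00333 from DESeq2), and *Ogdh* lowest at -0.24.

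Of 9 regulators of glycolysis tested, 1 was higher and 2 were lower without overlap, against 10.3% and 8.97% of all genes tested. *Epas1* (HIF-2α) was at 606, 497 and 488 CPM in ControlΔEC and 388, 353 and 266 CPM in Wt1KOΔEC (log2 fold change -0.66, SE 0.18, adjusted p = 0.217 from edgeR and 0.0149 from DESeq2). *Foxo1*, a brake on EC metabolism, was at 69.5, 86.8 and 45.1 CPM in ControlΔEC and 38.0, 37.1 and 33.6 CPM in Wt1KOΔEC (log2 fold change -0.89, SE 0.24, adjusted p = 0.209 from edgeR and 0.0230 from DESeq2). *Myc*, an activator of glycolytic genes, had the highest fold change of the list (0.45) with the genotypes overlapping.

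Genes listed as markers of other cells also differed between the libraries. The paper counts *Col1a1*, *Col3a1*, *Dcn* and *Emcn* among venous genes and *Rgs5* and *Kcnj8* among arterial genes. It also places *Col1a1* and *Acta2* among fibroblast genes. The fibroblast, mural and endocardial lists, which hold these genes, therefore cannot by themselves tell other cells apart from ECs. The 7 fibroblast markers summed to 678 to 979 CPM in ControlΔEC and 1344 to 1549 CPM in Wt1KOΔEC, and *Col1a1* among them was called higher (log2 fold change 1.34, adjusted p = 0.0441). Of this list 5 were higher without overlap (10.3% of all genes tested), while *Postn* (log2 fold change -0.16) and *Lum* (0.04) overlapped. The 5 endocardial markers summed to 603 to 748 and 1144 to 1191 CPM, with *Plvap* called higher (log2 fold change 2.31, adjusted p = 0.00319), and the 6 epicardial markers to 4.71 to 10.99 and 13.8 to 41.7 CPM. The 7 mural markers summed to 176 to 364 and 141 to 159.5 CPM, the 9 erythroid markers to 6573 to 14363 and 5112 to 8505 CPM, and the 8 cardiomyocyte markers to 124 to 178 and 99.0 to 229 CPM. Of the 6 mural markers tested 4 were lower without overlap (8.97% of all genes tested), *Rgs5* averaging 119 CPM in ControlΔEC and 20.9 CPM in Wt1KOΔEC. *Acta2* (log2 fold change -0.04) and *Tagln* (0.92) overlapped. The erythroid sum hides opposite directions without overlap. *Hbb-y* was at 27.7, 43.5 and 7.38 CPM in ControlΔEC and 183, 102 and 184 CPM in Wt1KOΔEC. *Alas2* was at 109, 228 and 80.3 CPM in ControlΔEC and 62.2, 51.6 and 74.8 CPM in Wt1KOΔEC. None of these markers was at 0 in all libraries. The part of these lists, and of the *Rn18s* and mitochondrial shares, in the levels of the glycolytic genes was not tested. The fit of *Eno1* without *Rn18s* and the mitochondrially encoded genes only took those genes out of the table, so it does not test this.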

How the data were processed

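RNA-Seq libraries of mGFP+ ECs from E15.5 ventricles, 3 ControlΔEC and 3 Wt1KOΔEC by the sample labels, were made by the authors with SMART-seq2 and Nextera XT without molecular identifiers. The authors aligned reads with STAR 2.7.8a and deposited the expected counts of RSEM 1.3.0 per gene (GENCODE vM27 on GRCm39 per their methods, GRCm38 per the labels), which divide reads shared between genes by estimation and were whole numbers here.

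The tests were run in edgeR 4.0.16 under R 4.3.3 (TMM, quasi-likelihood F test) on genes that reached 10 counts in 2 or more libraries. SE was obtained by dividing the absolute log2 fold change by the square root of F. DESeq2 1.42.0, the authors' tool, limma 3.58.1 (voom), other normalizations and filters, a block for the replicate number, GC content and length offsets (splines with 5 degrees of freedom) and leaving out each library were alternatives; the fit without *Rn18s* and mitochondrial genes, the sums over copies at other loci and the union exon length were added after seeing the data. Positions and lengths of canonical transcripts came from GENCODE vM39 on GRCm39. Gene models sharing at least 100 distinct words of 51 bases with a member were summed with it. All members were named, with *Wt1*, the genes called and the extremes of each other list at 10 CPM or more, and copies at 10 CPM or more that bear on a result. *Bsg* and other list genes are given by count. The members and lists were chosen with earlier results of these data known. The steps were tested on simulated data. Depth limits genes near 3 counts, and p-values set the difference between genotypes against the spread between these libraries within a genotype.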

Additional observations from a re-analysis of the deposited data

How the results depend on the processing

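Of the 34 genes, 28 kept their direction under every alternative run and *Hk1*, *Pfkm*, *Pfkfb2*, *Pfkfb4*, *Aldoc* and *Eno3* did not. With library size only the log2 fold change turned to -0.0096 for *Hk1* and -0.045 for *Pfkfb4*. With single libraries left out it ranged from -0.059 to 0.36 for *Hk1* (lowest without ControlΔEC library 2), -0.082 to 0.45 for *Pfkm* (lowest without Wt1KOΔEC library 1), -1.39 to 0.022 for *Pfkfb2* (highest without ControlΔEC library 2), -0.67 to 0.84 for *Pfkfb4* (lowest without Wt1KOΔEC library 2), -0.21 to 2.72 for *Aldoc* (lowest without ControlΔEC library 1) and -0.12 to 1.09 for *Eno3* (lowest without ControlΔEC library 3). Of the sums with read-sharing genes, *Pfkp*, at -0.0072 in the fit described, turned to 0.0098 with limma-voom, 0.017 with upper-quartile normalization, 0.0099 with length and GC offsets and 0.0082 with these plus the replicate block, and ranged from -0.062 to 0.10 with single libraries left out. The *Pfkm* sum, at 0.02, turned to -0.14 with library size only, -0.032 with length and GC offsets and -0.034 with these plus the replicate block, and ranged from -0.081 to 0.10. The *Hk1* sum turned to -0.0078 with library size only and ranged from -0.060 to 0.36, and the *Eno3* sum ranged from -0.12 to 1.09. The cause was not tested.

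The number of genes called higher was 7 with DESeq2, 3 with no filter (*Tpi1*, *Eno1* and *Pdk4*) and 9 at an unadjusted p with the fold change limit, and ranged from 0 to 1 with single libraries left out. The number called lower was 2, 1 (*Fbp1*) and 2 in the first 3 of these settings. Of all genes, DESeq2 called 1.43% higher and 1.72% lower, and edgeR at an unadjusted p with the limit 4.17% and 5.96%. The share of all genes called with no filter is not given here, so nothing is read from the counts of that setting. The sum of *Eno1* and *Eno1b* was called with DESeq2 (0.82), with no filter (0.83) and with at least 10 counts in every library (0.81), and ranged from 0.73 to 0.92 with single libraries left out. The median log2 fold change of the 34 genes was 0.11 with library size only, a setting that moved the median of all genes from -0.03 to -0.18, and it ranged from 0.25 to 0.38 with single libraries left out. The labels do not say whether same-numbered libraries belong together, and the paper describes a breeding that gave both genotypes in the same litter. Deviations of same-numbered libraries from their genotype means correlated at 0.057, 0.004 and 0.020, and not every library correlated best with its own number. Such weak correlations cannot decide whether the libraries were paired. With the replicate number as a block *Eno1* stayed the 1 gene called higher (1.57, adjusted p = 0.0227 from edgeR), the *Eno1* and *Eno1b* sum was at 0.82 and the median at 0.38. Depth limits *Pfkfb4*, *Aldoc* and *Fbp1*, which had libraries with 0 counts.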

Other observations

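Copies of the glycolytic genes at other loci held uneven counts. *Gm13394*, a processed pseudogene that shares 899 words of 51 bases with *Gapdh*, was at 172 CPM in Wt1KOΔEC library 1 and at 1.07 to 3.00 CPM in the other 5 libraries. *Pgam1-ps2*, a pseudogene of phosphoglycerate mutase, was at 9.45, 11.8 and 11.6 CPM in ControlΔEC and 30.7, 33.1 and 14.4 CPM in Wt1KOΔEC (log2 fold change 1.25, SE 0.33, adjusted p = 0.209 from edgeR), a larger log2 fold change than that of *Pgam1* itself at 0.33. *Gm49759*, a model next to *Pkm* with which it shares transcript sequence, had the opposite sign to *Pkm*, at 7.22, 35.5 and 11.2 CPM in ControlΔEC and 3.89, 6.15 and 4.67 CPM in Wt1KOΔEC (log2 fold change -1.88, SE 0.57). *Iffo1*, whose transcripts share stretches with those of *Gapdh* at the same locus, was at 21.2, 37.3 and 18.2 CPM in ControlΔEC and 11.6, 13.8 and 8.74 CPM in Wt1KOΔEC.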
